A study of Gallus gallus with 8 samples.

Results

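A set of 67 chicken genes was expressed in 7 of 8 dishes of cultured neural crest cells and missing or nearly missing from the remaining dish, replicate 2 of 3 at the higher dose of DAN. At the lowest level elsewhere, 34 of the 67 would have given at least 30 counts there. The other 33 were counted too sparsely to resolve a level under 10% of the lowest. For 24 of these 33, fewer than 3 counts would have been expected, and their absence was not resolved at all. The set was chosen by its measured values. A gene belongs to it if its deposited RPKM (read count scaled to gene length and to library size) was at least 0.1 in each of the other 7 libraries and if its RPKM in replicate 2 at 10 µg/ml was under 10% of the lowest of those 7. Of the 17108 genes in the table, 11656 met the first condition and 67 met both, which is 0.575% of the 11656. The low level in that library (hereafter the low library) therefore defines the set and is described without a test.

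Neural crest cells arise at the border of the neural plate, leave the dorsal neural tube and migrate as streams through the embryonic head, where they give rise to skeletal, neural and pigment cells. DAN is a secreted protein, encoded by NBL1, that binds bone morphogenetic proteins and keeps these ligands from their receptors. By its title, the study asked how DAN restrains invasion by crest cells and keeps their migration collective.

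Neural tube pieces from rhombomeres 3 to 5 of leghorn chicken embryos at HH stage 8 were plated on fibronectin and poly-D-lysine. The medium held DAN protein at 0, 1 or 10 µg/ml, the tubes and ectoderm were taken off after overnight culture, and polyadenylated RNA of the adherent cells was sequenced. Untreated cells gave 2 libraries (replicates 2 and 3) and each dose gave 3 (replicates 1, 2 and 3), each from 200 to 1000 cells. The labels speak of biological replicates, but state neither the number nor the sex of the embryos behind a dish. They name no allele and no other agent, and the dishes differ by label only in the amount of DAN.

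The libraries held 44338765 to 199084828 counts, and the low library was the shallowest. The low library also had the fewest genes with a count, 15045, where the others had up to 16239. Libraries of a group differed well beyond counting noise (a chi-square over its degrees of freedom from 71.9 to 155.7 at the doses and of 359.9 between the untreated libraries), so no pair was taken for a library deposited in duplicate. Genes are given by Ensembl ID, because the reference table at hand, with 25635 genes, holds 0 of the 17108 IDs. Their names, functions and chromosomes, and the markers of crest and other cell types, are therefore not analysed here. In such bulk samples, fewer cells of a type and less RNA per cell cannot be told apart.

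The 67 genes were an appreciable part of the RNA in every dish but the low one. Together they took 0.432% and 0.279% of all counts in untreated replicates 2 and 3, and 0.575%, 0.195% and 0.312% in replicates 1, 2 and 3 at 1 µg/ml. At 10 µg/ml they took 0.189% in replicate 1 and 0.309% in replicate 3. In replicate 2 they took 0.000699% (exact binomial 95% interval 0.000623% to 0.000781%), which is 310 of 44338765 counts. At their median level in the other 7 libraries, the same genes would have given 132423 counts there, and at their lowest level 75786.

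In normalised CPM (counts scaled to the TMM-adjusted library total, with no scaling to gene length), the summed level of the set was 3720 and 3066 in untreated cells and 5436, 1904 and 3149 at 1 µg/ml. It was 2028 and 3181 in replicates 1 and 3 at 10 µg/ml and 7.20 in the low library. That is 0.229% of the median of the other 7 (Poisson 95% interval of the count 0.204% to 0.255%). The share depends on the scale and on the leading gene by more than this interval, at 0.0632% as a sum of deposited RPKM and 0.355% without the most abundant gene. Group means were 3393 ± 463 (SD, n = 2) in untreated cells, 3496 ± 1792 (SD, n = 3) at 1 µg/ml and 2605 ± 815 (SD, n = 2) at 10 µg/ml without the low library. These ranges overlap, and among the libraries at 1 µg/ml alone the summed level spanned 2.86-fold.

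**Figure D1:**
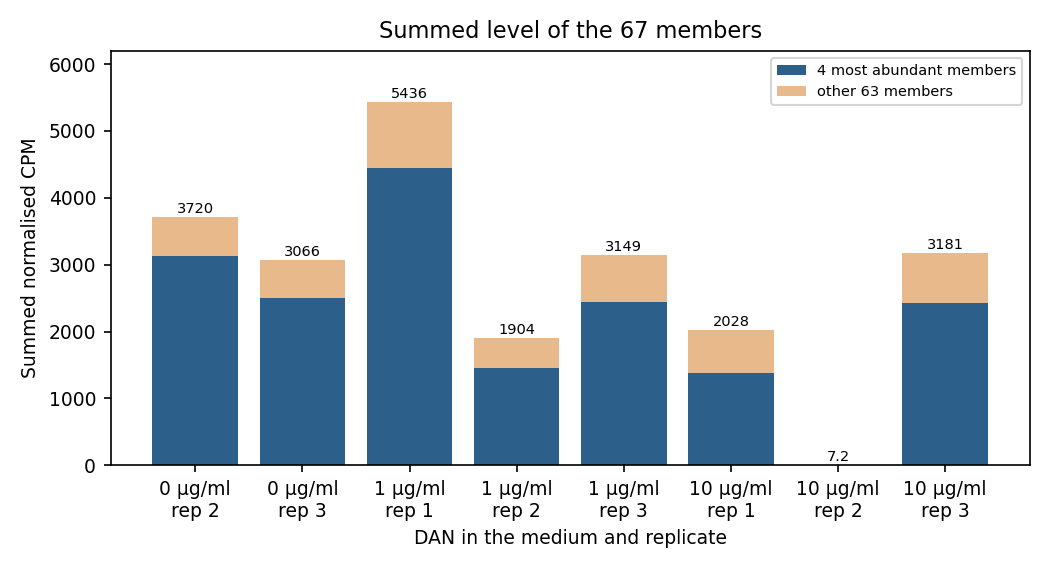
Summed normalised CPM of the 67 genes in each library (bars), split into the 4 most abundant genes and the other 63. The other 7 libraries lie between 1904 and 5436 CPM, and the low library lies at 7.20 CPM.

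Counting depth decides how much can be said of each gene. For 34 of the 67 genes the lowest level elsewhere would have given at least 30 counts in the low library, so that a floor of 3 counts lies at or under 10% of it. Of these 34 well-counted genes, 17 had no count in the low library and 17 had between 1 and 82 counts, 310 in all, where their median levels elsewhere would have given 132055. The other 33 genes (hereafter sparsely counted) all had no count there, but their median levels would have given only 367 counts in total. For 24 of these 33 genes fewer than 3 counts would have been expected at the lowest level, so their absence was not resolved at this depth. Among the rest of the 33 the expected count ran from 3.16 to 29.6, so a floor of 3 counts lies above 10% of the lowest level. For ENSGALG00000000712, with 3.71 expected, the upper 95% limit of the count was 79.8% of the median elsewhere. The limit of 30 counts was set after the data were seen. The binomial and Poisson intervals given here cover counting error only. PCR copies cannot be told from separate molecules, so the full error of a count can be larger than these intervals show.

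**Figure D2:**
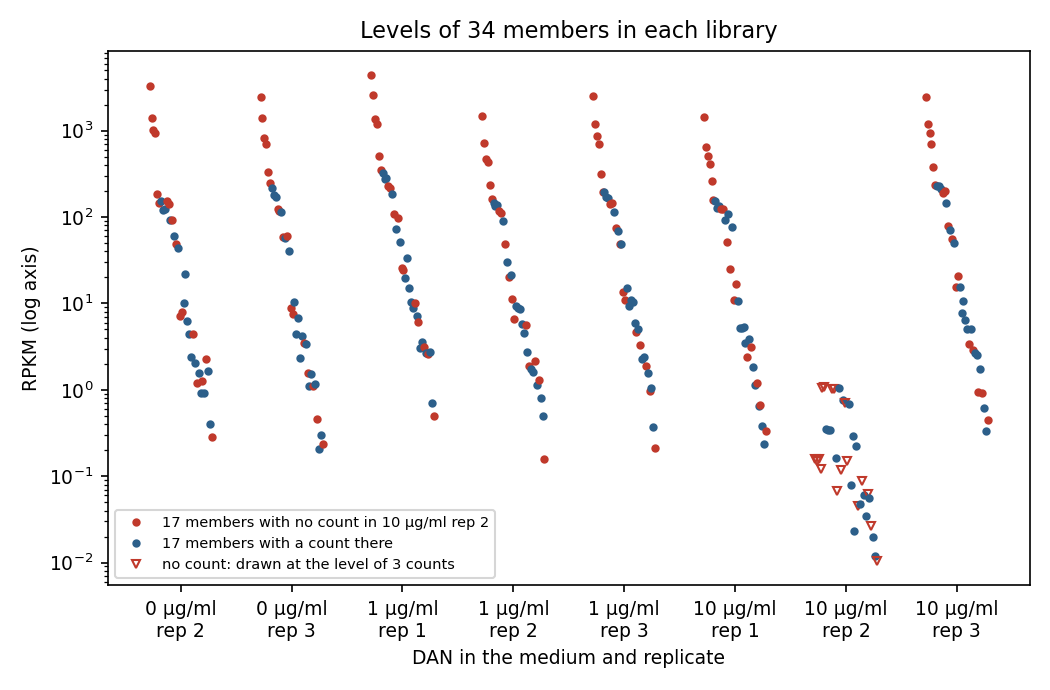
Deposited RPKM (log axis) of the 34 well-counted genes in each library, one point per gene, in order of median level. The open triangles mark genes with no count in the low library, drawn at the level that 3 counts would give. The 34 genes span 0.159 to 4412 RPKM in the other 7 libraries, and all points of the low library lie under the lowest value of the same gene elsewhere.

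The most abundant genes of the set were 4 with nearby ID numbers and lengths of 443 to 570 bases, and none of the 4 had a count in the low library. Values are given in the order of the replicate numbers, so the low library is the middle value at 10 µg/ml. ENSGALG00000022674 (445 bases) had RPKM values of 3333 and 2441 in untreated cells, 4412, 1480.1 and 2517 at 1 µg/ml, and 1433, 0 and 2432 at 10 µg/ml. ENSGALG00000022679 (458 bases) had 1392 and 1405 in untreated cells, 2608, 730.3 and 1198 at 1 µg/ml, and 654, 0 and 1191 at 10 µg/ml. Both were highest in replicate 1 at 1 µg/ml, and apart from the low library both were lowest in replicate 1 at 10 µg/ml. ENSGALG00000022685 (443 bases) had 1009 and 821 in untreated cells, 1382, 471 and 861 at 1 µg/ml, and 506, 0 and 936 at 10 µg/ml. ENSGALG00000022683 (570 bases) had 953 and 699 in untreated cells, 1208, 438 and 704 at 1 µg/ml, and 407, 0 and 693 at 10 µg/ml. For these 4 genes, the count expected in the low library at the median level was 46950, 23713, 16474 and 17223, in the order given. Against the floor of 3 counts, their level there was at least 15650-fold, 7904-fold, 5491-fold and 5741-fold lower than the median of the other libraries. These 4 genes made up 68.4% to 84.0% of the summed CPM of the set in the other 7 libraries.

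Other members were very short. Among the well-counted genes, 7 had lengths of 65 to 68 bases, less than a sequencing read, with median levels of 141 to 316 RPKM and 3 counts in all in the low library. ENSGALG00000026425 (66 bases), the most abundant of them, had RPKM values of 186 and 334 in untreated cells, 510.4, 234 and 316 at 1 µg/ml, and 261, 0 and 384 at 10 µg/ml. ENSGALG00000028688 (65 bases) had 144 and 247 in untreated cells, 353, 161 and 196 at 1 µg/ml, and 159, 0 and 235 at 10 µg/ml. Neither had a count in the low library, where 902 and 549 were expected at their median levels, so both were lower by at least 301-fold and 183-fold. Of the other short genes, ENSGALG00000027828 (65 bases) had 152 and 215 in untreated cells, 327, 146 and 193 at 1 µg/ml, and 155, 0.356 and 229 at 10 µg/ml. ENSGALG00000028557 (67 bases) had 122 and 181 in untreated cells, 277, 134 and 169 at 1 µg/ml, and 127, 0.345 and 226 at 10 µg/ml. ENSGALG00000028736 (67 bases) had 125 and 171 in untreated cells, 286, 137 and 165 at 1 µg/ml, and 134, 0.345 and 211 at 10 µg/ml. Each of these last 3 values in the low library is a single count. Of the 7 short genes, 5 were lower in untreated replicate 2 than in untreated replicate 3, and for ENSGALG00000027221 and ENSGALG00000026211 the order was the other way round. RPKM divides by length, so such short genes rank higher by RPKM than by counts. ENSGALG00000026425 held 682 to 7063 counts in the other 7 libraries. ENSGALG00000027235 (848 bases), of lower median RPKM, held 4394 to 33126.

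The remaining genes with counts in the low library show that the signal there was low but not always 0. ENSGALG00000027235 (848 bases) had RPKM values of 93.4 and 116 in untreated cells, 186, 89.8 and 116 at 1 µg/ml, and 91.3, 0.164 and 147 at 10 µg/ml, where the low library held 6 counts. ENSGALG00000027613 (1822 bases) had 61.1 and 57.8 in untreated cells, 72.9, 30.0 and 69.6 at 1 µg/ml, and 109, 1.04 and 71.1 at 10 µg/ml, with 82 counts in the low library, the most of any member. ENSGALG00000006907 (1290 bases) had 43.3 and 40.9 in untreated cells, 51.4, 21.1 and 49.1 at 1 µg/ml, and 76.8, 0.753 and 50.2 at 10 µg/ml, with 42 counts there. ENSGALG00000027613 and ENSGALG00000006907 were highest in replicate 1 at 10 µg/ml, unlike all other well-counted members. Their levels in the low library were 1.49% (exact Poisson 95% interval of the count, as for the intervals that follow, 1.19% to 1.86%) and 1.53% (1.11% to 2.07%) of their medians elsewhere.

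At middle levels, ENSGALG00000009227 (744 bases) had RPKM values of 10.1 and 10.4 in untreated cells, 19.7, 9.33 and 15.0 at 1 µg/ml, and 10.6, 0.684 and 15.7 at 10 µg/ml, with 22 counts in the low library. ENSGALG00000000386 (5973 bases) had 6.29 and 6.78 in untreated cells, 14.9, 8.56 and 11.0 at 1 µg/ml, and 5.24, 0.294 and 10.7 at 10 µg/ml, with 76 counts there. ENSGALG00000027261 (595 bases) had 22.2 and 4.45 in untreated cells, 33.4, 8.82 and 9.31 at 1 µg/ml, and 5.24, 0.078 and 7.78 at 10 µg/ml, with 2 counts there. Outside the low library ENSGALG00000009227 stayed between 9.33 and 19.7 RPKM and ENSGALG00000000386 between 5.24 and 14.9 RPKM, while ENSGALG00000027261 was far higher in untreated replicate 2 and in replicate 1 at 1 µg/ml than in the rest. ENSGALG00000014184 (4046 bases) had 4.39 and 2.31 in untreated cells, 10.4, 5.80 and 10.3 at 1 µg/ml, and 5.31, 0.023 and 6.45 at 10 µg/ml, with 4 counts there. ENSGALG00000014545 (3085 bases) had 2.41 and 4.22 in untreated cells, 8.86, 4.52 and 5.95 at 1 µg/ml, and 3.46, 0.225 and 5.09 at 10 µg/ml, with 30 counts there. ENSGALG00000001585 (1452 bases) had 2.06 and 3.43 in untreated cells, 7.22, 2.72 and 5.06 at 1 µg/ml, and 3.84, 0.048 and 5.11 at 10 µg/ml, with 3 counts there. All 3 were highest in replicate 1 at 1 µg/ml.

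The 5 lowest members with a count in the low library were long genes. ENSGALG00000005785 (8331 bases, the longest member) had RPKM values of 1.56 and 1.10 in untreated cells, 3.06, 1.73 and 2.28 at 1 µg/ml, and 1.84, 0.061 and 2.65 at 10 µg/ml, from 22 counts in the low library. ENSGALG00000014003 (3280 bases) had 0.918 and 1.52 in untreated cells, 3.62, 1.60 and 2.39 at 1 µg/ml, and 1.14, 0.035 and 2.56 at 10 µg/ml, from 5 counts. ENSGALG00000028913 (2469 bases) had 0.912 and 1.18 in untreated cells, 2.66, 1.15 and 1.56 at 1 µg/ml, and 0.648, 0.056 and 1.75 at 10 µg/ml, from 6 counts. These 3 stayed above 0.6 RPKM in all 7 other libraries. ENSGALG00000029162 (5693 bases) had 1.65 and 0.205 in untreated cells, 2.76, 0.801 and 1.05 at 1 µg/ml, and 0.379, 0.020 and 0.618 at 10 µg/ml, from 5 counts. ENSGALG00000027843 (3784 bases) had 0.405 and 0.298 in untreated cells, 0.697, 0.491 and 0.375 at 1 µg/ml, and 0.234, 0.012 and 0.334 at 10 µg/ml, from 2 counts. As a share of the median elsewhere, the 17 genes with counts ran from 0.142% for ENSGALG00000027235 (95% interval 0.0519% to 0.308%) to 6.48% for ENSGALG00000009227 (4.06% to 9.81%). The 95% intervals of these 2 genes, like those of ENSGALG00000027235 and ENSGALG00000027613, do not overlap.

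Of the 17 well-counted genes without a count, the 6 of highest median RPKM are given above, and the other 11 had median levels from 0.286 to 142 RPKM. ENSGALG00000022690 (1036 bases), whose ID lies close to those of the 4 most abundant genes, had a median of 75.1 RPKM and an expected count of 3361. The 33 sparsely counted genes had medians of 0.166 to 5.45 RPKM and lengths of 66 to 1932 bases. In them, single libraries held as few as 1 count.

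Members were short compared with the genes they were drawn from. The median length was 228 bases for the 67 genes and 2071 bases for the 11656 genes above 0.1 RPKM in the other 7 libraries. Genes of 120 bases or less made up 32 of the 67 (47.8%) and 507 of the 11656 (4.35%). Length differed between the well-counted and the other members, with medians of 818.5 and 109 bases, as an expected count grows with length. Of the 33 sparsely counted genes, 24 (72.7%) had 120 bases or less, against 8 of the 34 well-counted ones (23.5%). A short gene meets the first condition with very few reads, and among the sparsely counted members a single count in a library could be enough.

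The same rule was applied with each other library in turn as the low one, to show how often a library lacks genes that the rest have. It picked 129 of 11829 genes (1.09%) for untreated replicate 2 and 23 of 11657 (0.197%) for untreated replicate 3. At 1 µg/ml it picked 0 (0%) for replicate 1, 13 of 11596 (0.112%) for replicate 2 and 6 of 11607 (0.0517%) for replicate 3. At 10 µg/ml it picked 5 of 11602 (0.0431%) for replicate 1 and 5 of 11590 (0.0431%) for replicate 3. The count of 67 for the low library was thus not the highest.

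With the limit of 30 expected counts applied to each library, the low library and untreated replicate 2 again had the longest lists. The low library had 34 of 9875 genes (0.344%), untreated replicate 2 had 40 of 10329 (0.387%) and untreated replicate 3 had 8 of 10804 (0.074%). Replicates 1, 2 and 3 at 1 µg/ml had 0 (0%), 1 of 10461 (0.00956%) and 1 of 10561 (0.00947%). Replicate 1 at 10 µg/ml had 2 of 10822 (0.0185%) and replicate 3 had 0 (0%). The low library differed from untreated replicate 2 in how far the genes dropped. In the low library 17 of the 34 had no count, against 2 of the 40 in untreated replicate 2. Of the 34, 19 had a median of 10 RPKM or more elsewhere, the highest at 2441 RPKM, against 4 of the 40, the highest at 48.5 RPKM.

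The shape of the drop differed as well. In the low library 22 well-counted genes lay under 1% of the lowest other library, 12 lay between 1% and 10%, 3 between 10% and 20%, and 10 between 20% and 50%. In untreated replicate 2 the same bins held 2, 38, 38 and 351 genes. In untreated replicate 3 they held 2, 6, 8 and 101 genes. Genes with no count were placed under 1%, also where 3 counts would lie above that. For ENSGALG00000028139 and ENSGALG00000014584, for example, 3 counts would be 9.63% and 1.88% of the lowest level elsewhere. The split at 1% is therefore not resolved for every gene. In the low library each of the 2 bins under 10% held more genes than either bin between 10% and 50%. From 50% up to the lowest other library there were 762 genes. In both untreated libraries the bin from 20% to 50% was by far the largest of the 4. These counts come from single libraries and carry no test.

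**Figure D3:**
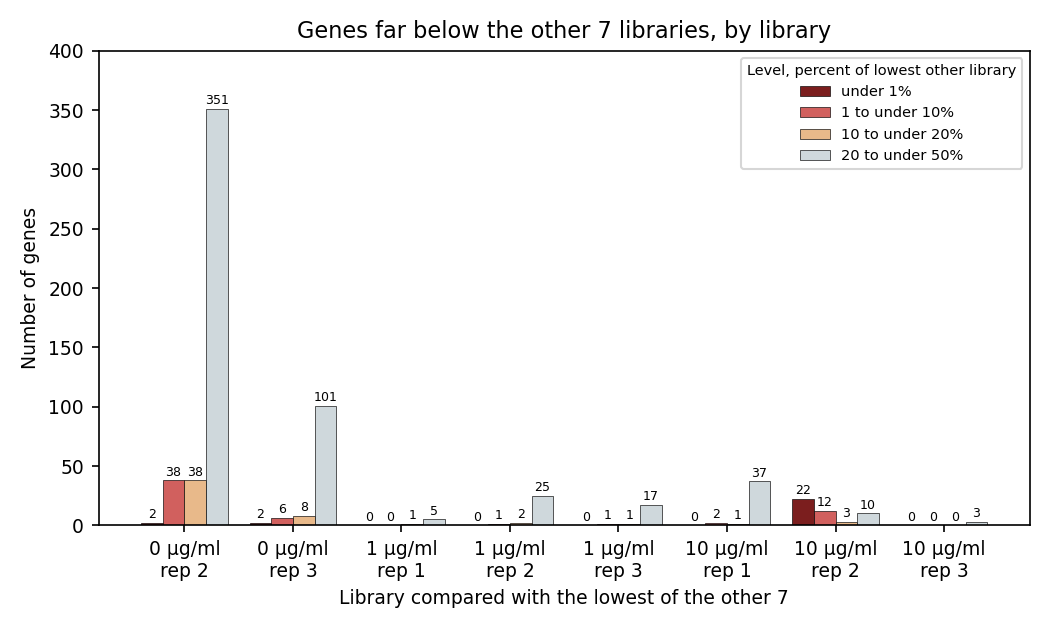
Number of well-counted genes (vertical axis) in each library whose level lay under the lowest of the other 7 libraries, in 4 bins of the ratio. Genes with no count are placed under 1%. The low library has 22 genes under 1% and 12 between 1% and 10%, whereas untreated replicate 2 has 2 and 38 in these bins and 351 between 20% and 50%.

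Few genes lay close to the threshold of 10%. Just inside it were ENSGALG00000029162 at 9.76% of its lowest level elsewhere (5 counts, 95% interval 3.22% to 23.1%), ENSGALG00000014545 at 9.35% (30 counts, 6.31% to 13.3%) and ENSGALG00000028913 at 8.64% (6 counts, 3.18% to 18.9%). Just outside were ENSGALG00000001282 at 10.7% (1 count, 0.270% to 59.4%), ENSGALG00000010793 at 11.1% (3 counts, 2.23% to 31.6%) and ENSGALG00000014441 at 15.9% (193 counts, 13.7% to 18.3%). Of these 6 genes, only ENSGALG00000014441 had an interval that left the threshold out. ENSGALG00000014441 (2492 bases) had RPKM values of 12.1 and 11.3 in untreated cells, 28.6, 16.0 and 19.4 at 1 µg/ml, and 16.6, 1.79 and 21.0 at 10 µg/ml. It was low in the low library by less than the members and, like 32 of the 34 well-counted ones, highest in replicate 1 at 1 µg/ml.

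Genes outside the set whose pattern was most like it were found by Pearson's r, over 8 libraries, between log2 CPM and the mean log2 CPM of the members, among 14033 genes. The 5 most alike were ENSGALG00000027403 (r = 0.989), ENSGALG00000028075 (0.979), ENSGALG00000014441 (0.958), ENSGALG00000010793 (0.957) and ENSGALG00000010078 (0.942). These r values rest mainly on the low library and are given as a description. Most of these genes were sparse, with 6 counts for ENSGALG00000027403 and 8 for ENSGALG00000010078 in the low library and at most 109 counts in any other. ENSGALG00000028075 had no count there and 21 to 81 counts elsewhere, but stayed under 0.1 RPKM in all libraries. Of the 5, only ENSGALG00000014441 was above 1 RPKM.

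In the 7 libraries that the rule did not set low, the well-counted genes shared a peak in replicate 1 at 1 µg/ml and were less alike elsewhere. Each value was divided by the median of the gene over these 7 libraries. The median of this relative level over the 34 genes was 0.879 and 0.867 in untreated replicates 2 and 3, and 1.81, 0.806 and 1.00 in replicates 1, 2 and 3 at 1 µg/ml. It was 0.795 and 1.16 in replicates 1 and 3 at 10 µg/ml. For all 14078 genes tested the median was 1.00 in every one of these 7 libraries. That value follows largely from the library scaling and from dividing each gene by its own median. All 34 genes were highest in replicate 1 among the libraries at 1 µg/ml, against 4883 of 14060 genes (34.7%). Of the 34, 32 were highest there among all 7 libraries, and the other two were ENSGALG00000027613 and ENSGALG00000006907. The single genes scattered widely around the medians in other libraries, from 0.406 to 2.52 in untreated replicate 2, from 0.256 to 1.26 in untreated replicate 3 and from 0.473 to 1.56 in replicate 1 at 10 µg/ml. In untreated replicates 2 and 3, 10 and 7 of the 34 lay above 1, against 44.8% and 45.5% of all genes. In replicates 1, 2 and 3 at 1 µg/ml 34, 4 and 18 did, against 41.3%, 42.0% and 39.8%. In replicates 1 and 3 at 10 µg/ml 5 and 24 did, against 44.1% and 41.9%. Replicate 1 at 1 µg/ml is also the deepest of the 8, and the part of depth in this was not tested.

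**Figure D4:**
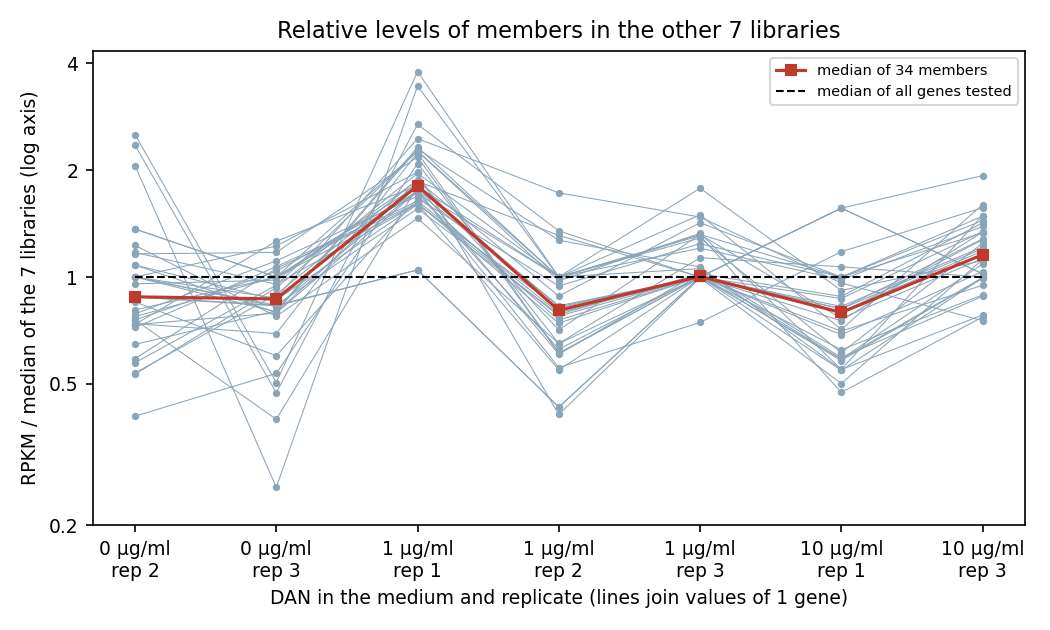
Relative level (RPKM divided by the median of the gene over the 7 libraries, log axis) of the 34 well-counted genes in the 7 libraries other than the low one. Thin lines join the values of a gene, and the thick line is their median, which reaches 1.81 in replicate 1 at 1 µg/ml and lies between 0.795 and 1.16 elsewhere.

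The genes differed between dishes of the same dose. Within the libraries at 1 µg/ml, the highest level of a well-counted gene was a median of 2.25 times the lowest, against 1.35 times for all genes. Within replicates 1 and 3 at 10 µg/ml the median was 1.50 times, against 1.18 for all genes, and between the untreated libraries it was 1.34 times, against 1.50 for all genes. By these medians the genes varied more than the whole table within each dose and less than it between the untreated dishes.

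Some members kept nearly fixed proportions to each other. Among the 41 members with at least 10 counts in each of the 7 libraries, the ratio of 2 counts spanned a median of 3.54-fold over the libraries in 820 pairs. Of these, 33 pairs spanned under 1.5-fold. How often pairs of other genes do so was not computed, so such ratios are not shown to be a trait of the set. The closest pair was ENSGALG00000027613 and ENSGALG00000006907, with a ratio of 1.99 to 2.00 in all 7 libraries and of 1.95 in the low library, so that their counts fell together. ENSGALG00000022674 and ENSGALG00000022683 kept a ratio of 2.64 to 2.85, and all 6 pairs of the 4 most abundant genes spanned under 1.5-fold. Pairs among the 7 genes of 65 to 68 bases spanned 1.13-fold to 2.25-fold. Their ratios to the longer ENSGALG00000027235 (848 bases) were as close, spanning 1.15-fold for ENSGALG00000028736 to 1.55-fold for ENSGALG00000027221. How the authors' counting treated reads that fit more than one gene is not stated in the labels, and whether these pairs share reads was not tested.

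Most of the 33 sparsely counted members had their highest level outside replicate 1 at 1 µg/ml. Among the 7 libraries, 11 of them were highest in untreated replicate 2, 11 in untreated replicate 3, 6 in replicate 1 at 1 µg/ml, 2 in replicate 3 at 1 µg/ml, 1 in replicate 1 at 10 µg/ml and 2 in replicate 3 at 10 µg/ml. Of those highest in untreated replicate 2, ENSGALG00000010396 (1401 bases), named after its values were seen, had RPKM values of 3.72 and 1.39 in untreated cells, 1.05, 1.42 and 0.855 at 1 µg/ml, and 0.489, 0 and 1.51 at 10 µg/ml. In the low library it was expected to give 29.6 counts at its lowest level and 84.2 at its median level, and it had none. It thus fell just under the limit of 30 counts, and the part of depth in its absence there was not tested.

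The effect of DAN on these genes was examined without the low library, since the rule used it. Of the 67 genes, 52 passed the filter on low counts, among them all 34 well-counted ones, and 15 did not. A gene was called at an adjusted p under 0.05 over all 14078 genes tested (quasi-likelihood test of edgeR, Benjamini-Hochberg adjustment). The comparisons with untreated cells share their 2 control libraries and are not independent of each other.

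At 1 µg/ml against untreated cells, 0 of the 52 genes were called, where 15 of all genes (0.107%) were. Before adjustment 9 of the 52 (17.3%) had a p under 0.05, against 24.1% of all genes, and 8 of the 9 were higher with DAN. The median log2 fold change was 0.26 for the 52 genes and -0.03 for all genes. For the 34 well-counted genes the log2 fold changes ranged from -0.09 to 1.45, with a median standard error of 0.39. Their median log2 fold change was 0.38, with 29 of the 34 higher, against 47.9% of all genes. Without replicate 1 at 1 µg/ml, the median of the 34 was -0.01 and 16 were higher, so that this shift rests on that library. All 3 libraries at 1 µg/ml lay above both untreated ones for 11 of the 52 genes, where this held for 20.1% of all genes. They lay below both for 5 of the 52, where this held for 19.8% of all genes.

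The smallest adjusted p among members at 1 µg/ml was that of ENSGALG00000014184, whose values by library are given above. It had a log2 fold change of 1.40 ± 0.36 (SE, adjusted p = 0.0778, edgeR). All 3 libraries at 1 µg/ml lay above both untreated ones for this gene. The most abundant gene, ENSGALG00000022674, had a log2 fold change of -0.05 ± 0.42 (SE, adjusted p = 0.953, edgeR), with untreated values inside the range of those at 1 µg/ml.

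At 10 µg/ml (replicates 1 and 3) against untreated cells, 0 of the 52 genes were called, where 1503 of all genes (10.7%) were. Before adjustment 2 of the 52 (3.85%) had a p under 0.05, against 31.4% of all genes. The median log2 fold change was -0.05 for the 52 genes and -0.02 for all genes. For the 34 well-counted genes the log2 fold changes ranged from -1.04 to 1.28, with a median standard error of 0.42. Their median log2 fold change was 0.20, with 22 higher, against 48.7% of all genes. Without replicate 1 at 10 µg/ml that median was 0.47, and without replicate 3 it was -0.19, so its direction depends on which dish is read. The smallest adjusted p among members was 0.138 (edgeR). For ENSGALG00000022674 the log2 fold change was -0.59 ± 0.46 (SE, adjusted p = 0.417, edgeR).

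At 10 against 1 µg/ml, 0 of the 52 genes were called, where 1 of all genes (0.0071%) was. Before adjustment 2 of the 52 (3.85%) had a p under 0.05, against 11.5% of all genes, and both were lower at 10 µg/ml. The median log2 fold change was -0.22 for the 52 genes and -0.03 for all genes. For the 34 well-counted genes the log2 fold changes ranged from -1.63 to 0.64, with a median standard error of 0.38. Their median log2 fold change was -0.33, with 5 higher, against 47.6% of all genes. Without replicate 1 at 1 µg/ml it was 0.11 with 20 higher, and without replicate 1 at 10 µg/ml it was 0.00. The smallest adjusted p among members was 0.322 (edgeR).

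With the low library put back, the medians of the 34 genes were -0.36 at 10 µg/ml against untreated cells and -0.90 against 1 µg/ml, which the rule itself brings about. In this fit 0 of the 52 genes were called in either comparison (edgeR). It uses the values that chose the genes, and a drop in 1 of 3 libraries also raises the spread. No conclusion is drawn from it.

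**Figure D5:**
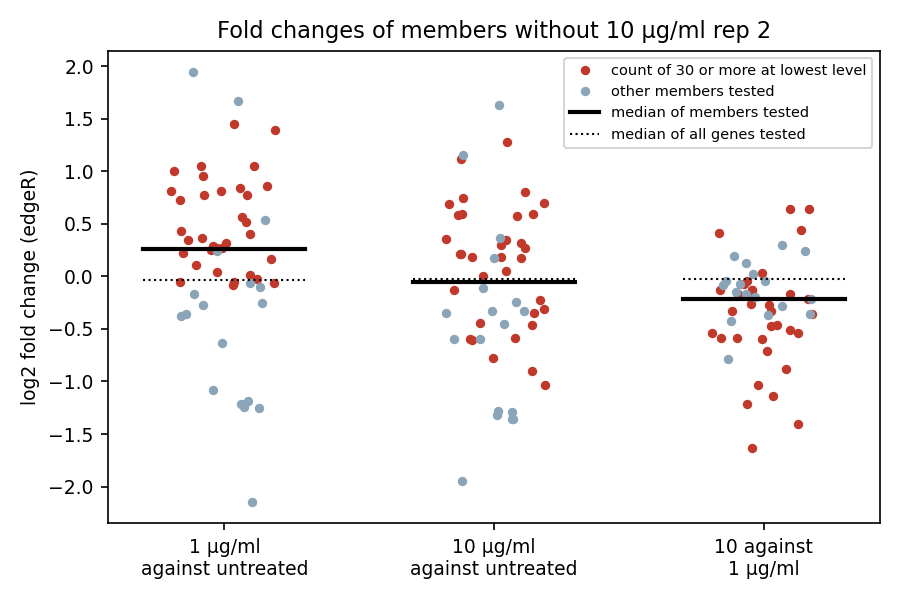
log2 fold change (edgeR, without the low library) of the 52 members tested in each of 3 comparisons, one point per gene. Solid lines are the medians of the members (0.26, -0.05 and -0.22) and dotted lines those of all genes tested (-0.03, -0.02 and -0.03), and points lie on both sides of 0 in each comparison.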

How the data were processed

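Whole-number read counts and RPKM values per Ensembl gene ID and library were used as deposited by the authors. Per the labels' protocols, cDNA came from the SMART-seq v4 low-input kit, was tagged with Nextera XT and read as pairs on a NextSeq. That kit adds no molecular identifiers and does not mark the strand, so PCR copies count as reads and overlapping genes cannot be told apart. Per the submitters' processing notes, the names galGal4 (a genome build), bedtools, edgeR 3.12.0, FastQC 0.10.1 and TopHat2 2.0.13 apply, without roles or order. Gene lengths were derived from the ratio of the deposited counts to the deposited RPKM, which scaled with TMM-adjusted totals within 0.0170% for 5133 genes.

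The genes of the set, the lists and the tests were chosen with earlier results of these data known. Counts of 7 libraries, without replicate 2 at 10 µg/ml, entered a quasi-likelihood model (edgeR 4.0.16, R 4.3.3) with a mean per group, TMM factors, the filterByExpr minimum count of 10, 2-sided tests and Benjamini-Hochberg adjustment over all genes tested. The script was tested on simulated counts. CPM used TMM-adjusted totals, and log2 CPM a prior count of 2. A floor of 3 counts was 0.0143 to 0.0696 CPM by library. Total counts ran from 44338765 to 199084828. Values in every library are given for the 6 members of highest median RPKM, for the 17 with a count in the low library and for any member called, of which there was none. Alternatives were all 8 libraries, RLE size factors, DESeq2 1.42.0, limma 3.58.1 on log2(RPKM + 1) and log2(RPKM + 0.1), no filter, a replicate block, each library left out, and other limits in the rule. A fold change on the log2(RPKM + pseudocount) scale understates the change of low genes.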

Additional observations from a re-analysis of the deposited data

How the results depend on the processing

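The number of genes in the set depends on the limits of the rule. It was 36 with a minimum of 0.5 RPKM, 29 with 1 RPKM, 44 with a count of at least 10 in place of a minimum RPKM (41 shared with the 67), and 34 with at least 30 expected counts, a limit added after the data were seen. With a ratio under 1/5 or 1/20, or TMM-adjusted CPM in place of RPKM, it was 75, 60 and 45. The summed level in the low library, 0.229% of the median of the other 7 in CPM, was 0.0632% as a sum of RPKM and 0.355% without the most abundant gene.

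No member was called by edgeR in any of the 3 comparisons, nor with RLE factors or no filter. The fit with all 8 libraries also called none, but it holds the library that chose the genes and is no check. DESeq2 called 3 at 1 µg/ml against untreated (ENSGALG00000014184, ENSGALG00000026455 and ENSGALG00000000140, adjusted p = 0.00325, 0.0124 and 0.0370), out of 52 members tested where it called 1890 of 14078 genes, and 1 at 10 against 1 µg/ml (ENSGALG00000014584, adjusted p = 0.0478), where it called 340 genes. limma on log2(RPKM + 1) called 1 of the 52 at each dose against untreated (ENSGALG00000028521, lower with DAN, adjusted p = 0.0457 at 1 and 0.0168 at 10 µg/ml). Of all 14078 genes it called 48 at 1 and 1535 at 10 µg/ml. On log2(RPKM + 0.1) it called the same 1 at 10 µg/ml (adjusted p = 0.0267), where 1616 of all genes were called. ENSGALG00000028521 (101 bases) held only 4 to 29 counts in each of the 7 libraries. Leaving out each library at 1 µg/ml in turn gave 0 members in each comparison (edgeR). These fits called 0 of all genes at 1 µg/ml, 669 to 704 at 10 µg/ml and 0 at 10 against 1 µg/ml. Among the fits with a library left out, edgeR called members only where a single untreated library remained, which has no spread of its own. The log2 fold changes were 1.92 for ENSGALG00000014184 at 1 µg/ml without untreated replicate 2 and 1.40 for ENSGALG00000014545 at 1 µg/ml without untreated replicate 3. Without untreated replicate 3 that of ENSGALG00000010396 at 10 µg/ml was -1.92 (edgeR).

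Counts over all genes moved far more. Against 15, 1503 and 1 called genes in the order 1 and 10 µg/ml against untreated and 10 against 1 µg/ml, DESeq2 called 1890, 3123 and 340 and edgeR with all 8 libraries 396, 2304 and 0. Leaving out single libraries gave 0 to 3518, 0 to 4827 and 0 to 64 (edgeR). With no filter, 230 genes were called at 1 µg/ml (edgeR), and limma on log2(RPKM + 1) and log2(RPKM + 0.1) called 48 and 2 there and 1535 and 1616 at 10 µg/ml. With the replicate number as a block, 0 members were called in each comparison, and 7, 60 and 0 of all genes (edgeR). Deviations of same-numbered libraries correlated at -0.03 to 0.18, not above 0.1 in every pair, so the numbers were not taken to pair the samples. Between the 2 doses, however, same-numbered libraries correlated at 0.13, 0.18 and 0.06 for replicates 1, 2 and 3. Differently numbered libraries of the 2 doses correlated at -0.14 to 0.04. Deviations from a group mean cancel out within the group, so positive values for same numbers push those for different numbers down. Whether the numbers link dishes of the 2 doses is not stated in the labels and was not tested further. In the block fit the median log2 fold change of the 34 well-counted genes at 10 µg/ml against untreated was -0.09 in place of 0.20. What caused these differences was not tested.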

Other observations

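Genes that stood more than 2-fold above the highest of the other 7 libraries, with at least 0.1 RPKM in each of those 7, were counted as the mirror image of the rule. More than 2-fold above stood 8 of 11656 genes in the library that lacked the set. In untreated replicates 2 and 3 there were 345 of 11829 and 99 of 11657. Replicates 1, 2 and 3 at 1 µg/ml had 24, 15 and 6, and replicates 1 and 3 at 10 µg/ml had 19 and 5. At a limit of 10-fold, the mirror image of the rule, 1 of the 8 genes remained, and replicate 1 at 1 µg/ml had 5 genes. Replicates 1 and 3 at 10 µg/ml had 1 and 2, and each of the other 4 libraries had 0.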
